A study of Mus musculus with 435 samples.

Results

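Canonical Wnt signalling was described in the somatic cells of the fetal mouse testis through 9 genes: Ctnnb1, which encodes beta-catenin, the nuclear partners Lef1, Tcf7 and Tcf7l2, the negative regulators Axin2, Znrf3 and Nkd1, and the secreted antagonists Sfrp1 and Sfrp2. They were taken by name from the 16459 genes of the deposited values, and all 9 were present. RNA had been sequenced from single cells of XY gonads of NR5A1-eGFP mice on a mixed background, in which green fluorescence marks cells that use Nr5a1, the transcription factor of gonadal somatic and steroid-producing cells. No other allele or treatment is named for any group, and the promoter construct behind the reporter is not described in the labels. Green cells were sorted at 5 stages between E10.5 and E16.5, with Draq7 to leave out dead cells, and captured on microfluidic chips. The early group held the 3 captures of E10.5 and E11.5, when the gonad is a ridge without cords, and the late group the 6 captures of E12.5, of E13.5 and of E16.5, when testis cords form and grow.

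In the absence of a Wnt signal, beta-catenin is bound by a complex that contains axin and is degraded. When a Wnt ligand engages its receptors, beta-catenin accumulates, enters the nucleus and activates genes together with the TCF and LEF proteins. Axin2, Lef1, Tcf7, Znrf3 and Nkd1 are themselves transcribed in response to the signal in many tissues, so their transcripts are often read as its footprint. In the gonad, Wnt4, Rspo1 and beta-catenin promote ovarian differentiation, and stabilised beta-catenin in XY gonads disturbs testis formation. Sfrp1 and Sfrp2 encode secreted frizzled-related proteins, which bind Wnt ligands outside the cell.

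The 9 captures were the replicates, 1 for E10.5 and 2 for each stage after it, and 396 cells were kept, 30 to 59 per capture. How many embryos a capture pooled is not in the labels, so p-values measure the spread between captures only. Reads per cell, inferred from the values, had medians of 2.2 to 3.24 M in the run labelled 10M reads (E11.5, E12.5, E16.5) and 7.83 to 8.1 M in the run labelled 25M reads (E10.5, E13.5). Values are RPKM, reads scaled to transcript length and library depth, so levels can be compared between genes. A cell was counted as having a transcript at 1 RPKM or more, which at the lowest median depth of a capture stood for 4.74 reads of Sfrp2, the shortest of the genes, and 19.4 reads of Lef1. eGFP reached that level in 370 of the 396 cells, Nr5a1 in 309 and Wt1, a gene of the gonadal somatic lineages, in 329. Intervals on shares are Wilson 95% intervals and cover counting error only.

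Levels of the 9 genes covered a wide range. Averaged over the 9 captures, Ctnnb1 had the highest mean at 136 ± 39.5 RPKM (SD over captures, n = 9), followed by Sfrp1 at 77.1 ± 43.6, Tcf7l2 at 29.3 ± 8.16 and Sfrp2 at 26.3 ± 40.9. Znrf3 followed at 19.9 ± 8.29 RPKM and Tcf7 at 13.8 ± 10.3. Lef1 had a mean of 5.75 ± 3.3 RPKM, Nkd1 of 2.92 ± 3.18 and Axin2 of 0.722 ± 0.569. The mean ± SD of neighbours in this order overlapped. Within captures, Sfrp1 was above Tcf7l2 in 9 of 9 and Nkd1 above Axin2 in 8 of 9, while the other neighbours kept this order in 3 to 7 of 9 captures. Ctnnb1 was found in 96.7% of cells and Tcf7l2 in 89.1%, while Axin2 was found in 7.83% (31 of 396 cells). The broadly found genes and the rarely found ones are thus different kinds of measurement: for the latter a capture's mean can rest on a few cells, as the plot of capture means and the plot of shares show side by side.

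**Figure D1:**
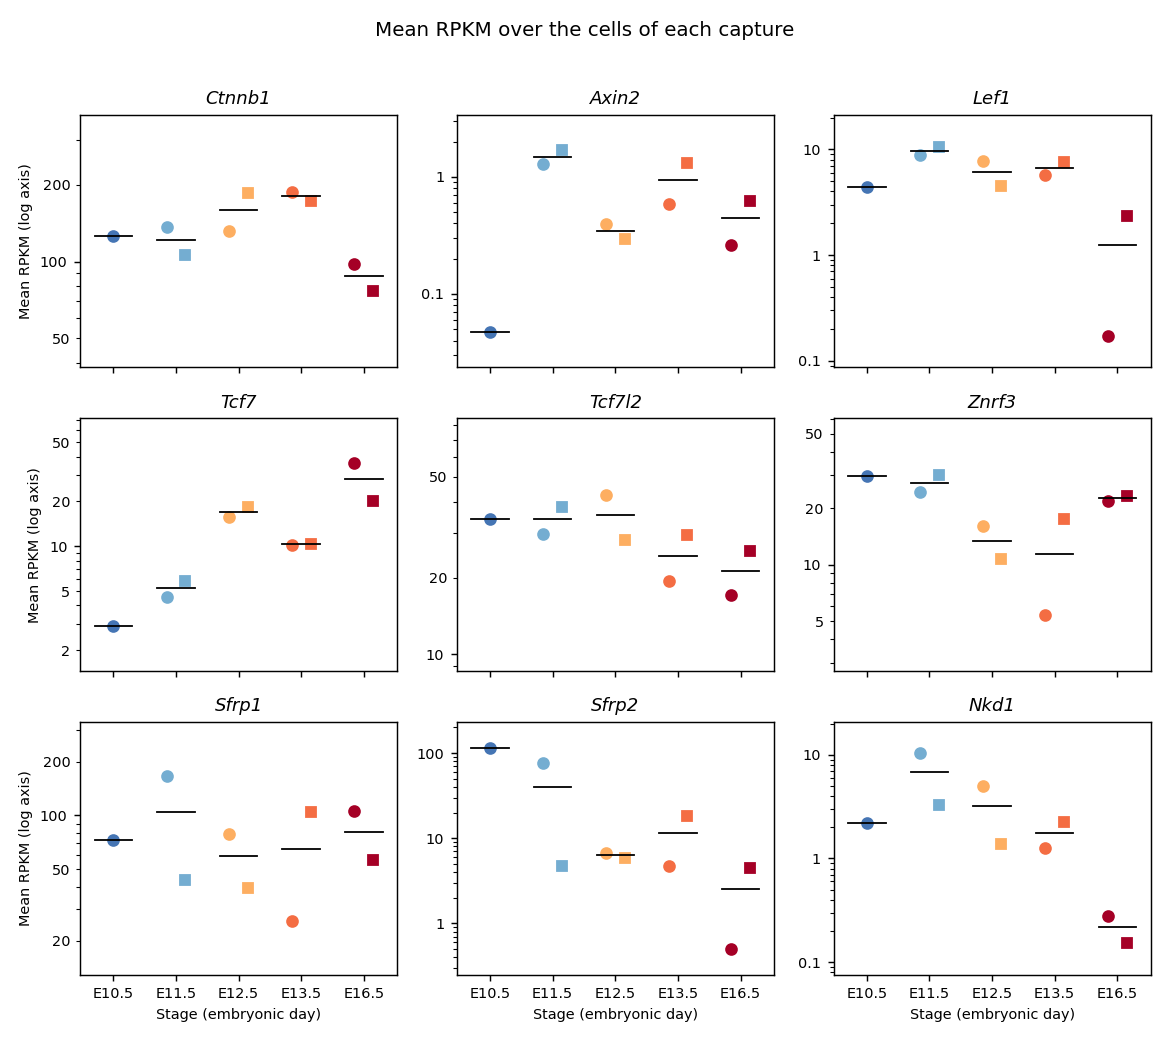
Mean RPKM over the cells of a capture (log axis, its range differing between panels) for the 9 genes against stage; circles and squares are the first and second capture of a stage and lines the stage means. Tcf7 is above 10 RPKM in all 6 late captures and below 6 RPKM in the 3 early ones, while the captures of Sfrp1 overlap at all stages.

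**Figure D2:**
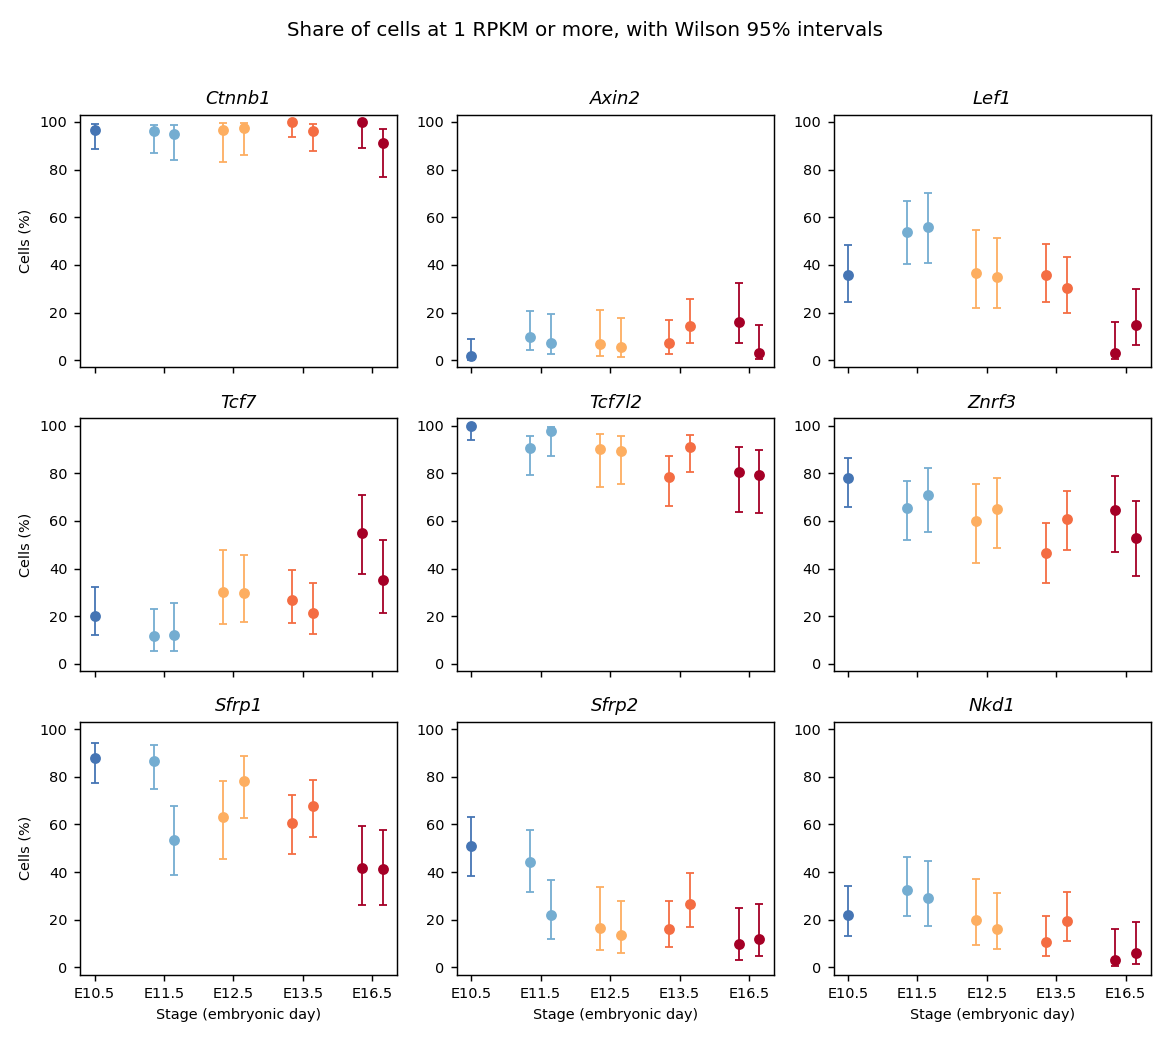
Percent of a capture's cells at 1 RPKM or more with Wilson 95% intervals, against stage, 1 point per capture. Ctnnb1 is found in 91.2% or more of the cells of every capture, and Lef1 in 3.23% and 14.7% at E16.5.

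Ctnnb1 (chr9:120929216-120960507, plus strand, GRCm38), the gene of the signal's transducer, was found in nearly all cells at every stage. Its mean was 126 RPKM in the E10.5 capture, 136 and 106.2 RPKM in the pair of E11.5, 132 and 186 in that of E12.5, 188 and 172 in that of E13.5, and 97.9 and 76.9 in that of E16.5. Both E16.5 captures lay below the other 7, and the E12.5 and E13.5 captures above most of the early ones. The difference between E16.5 and E12.5 was -0.85 ± 0.32 on the log2(mean RPKM + 1) scale (SE) and did not pass the test across all genes (limma, adjusted p = 0.291). The late and early groups differed by 0.14 ± 0.29 (adjusted p = 0.929). Exons of Ulk4 overlap those of Ctnnb1 on the opposite strand over 759 bases, and Ulk4 was also the gene most like Ctnnb1 over cells (correlation 0.78). The sources used here do not say that counting used strand, so reads of that stretch cannot be told apart.

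Tcf7 (chr11:52252371-52283014, minus strand), which encodes the transcription factor TCF1, had the clearest order of the 9 genes. Its mean was 2.9 RPKM in the E10.5 capture, 4.58 and 5.83 RPKM in the pair of E11.5, 15.6 and 18.3 in that of E12.5, 10.2 and 10.4 in that of E13.5, and 36.1 and 20.2 in that of E16.5. All late captures were above all early ones, 18.5 ± 9.56 RPKM (SD, n = 6) against 4.44 ± 1.47 (n = 3). Among all genes tested, 2.96% had every late capture above every early one. The change, 1.75 ± 0.42 on the log2 scale, missed the threshold of 0.05 (limma, adjusted p = 0.0857). It was 1.86 ± 0.47 within the 10M read run and 1.53 within the 25M read run, where the early side is the E10.5 capture alone. Without the cells of cluster 3, the Sertoli-like cells described further on, it was -0.21 ± 0.76, an alternative chosen after the data were seen. The summed level of the 12 Sertoli markers was 78 to 194 RPKM in the early captures and 712 to 4063 RPKM in the late ones. Tcf7 was found in 12 of 59, 6 of 52 and 5 of 41 cells of the early captures and in 21.4% to 54.8% of cells of the late ones. In the E11.5 captures, 1 cell held 54.2% and 69.4% of all Tcf7.

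For Tcf7, 2 promoter windows are listed by RefSeq on GRCm38.p6, and the upstream one is shown because Tcf7 is the gene with the clearest stage and cluster pattern. It spans chr11:52282965-52283264 on the minus strand, 250 bases before to 50 bases after an annotated start. No base is capitalised because neither motif searched was found in it. From its first atg the window reads to its end without a stop codon. It may thus hold coding sequence of transcripts that start further upstream, which was not tested. The missing motifs are therefore not read as a property of the Tcf7 promoter.
Tcf7 promoter: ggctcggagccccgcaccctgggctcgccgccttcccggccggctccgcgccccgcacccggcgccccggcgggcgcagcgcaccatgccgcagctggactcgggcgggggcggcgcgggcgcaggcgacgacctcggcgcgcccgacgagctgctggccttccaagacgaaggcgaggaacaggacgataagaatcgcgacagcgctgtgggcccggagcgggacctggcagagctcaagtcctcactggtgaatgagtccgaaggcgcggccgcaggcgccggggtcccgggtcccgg
The motifs searched on both strands were the TCF/LEF letters ATCAAAG, read as CTTTGAT on the opposite strand, and the SOX letters AACAAT, read as ATTGTT there; neither motif contains the other. The table held 13 windows for 7 of the 9 genes, and Znrf3 and Sfrp1 were not matched. None of the 13 held the TCF/LEF letters, which 3.73% of all 32851 windows hold. The SOX letters were in 1 of the 13, of Tcf7l2, against 10.7% of all windows. Gene-level RPKM adds up transcripts from all starts of a gene, so full-length and shortened forms of Tcf7 and Lef1 were not separated.

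Lef1 (chr3:131110471-131224356, plus strand), the other nuclear partner that is often induced by the signal, was low at E16.5. Its mean was 4.37 RPKM in the E10.5 capture, 8.81 and 10.6 RPKM in the pair of E11.5, 7.78 and 4.46 in that of E12.5, 5.68 and 7.58 in that of E13.5, and 0.173 and 2.32 in that of E16.5. It was found in 1 of 31 and 5 of 34 cells at E16.5, 3.23% (0.572 to 16.2) and 14.7% (6.45 to 30.1), and in 30.4% to 56.1% of cells in the 7 other captures. The E16.5 captures were below the E12.5 captures by -1.81 ± 0.66 on the log2 scale, which did not pass the test (limma, adjusted p = 0.282). The same contrast on the share of cells passed it (limma, adjusted p = 0.0363). On that scale 219 of all genes passed, against 44 on the log2 scale. The makeup of the captures moved with Lef1. The Sertoli-like cells of cluster 3 had Lef1 in 0 of 18 and 2 of 15 cells at E16.5. They were 58.1% and 44.1% of cells there and 13.3% and 10.8% at E12.5. The coelomic epithelium-like cells of cluster 4, which at E12.5 had Lef1 in 5 of 8 and 2 of 3, were absent at E16.5. Without the cells of cluster 3 the change was -1.67 ± 0.73 (limma, adjusted p = 0.362); the part of cluster 4 was not tested. Between late and early captures the change was -1.53 ± 0.79 within the 10M read run. It was 0.49 within the 25M read run, where the early side is the E10.5 capture alone. The pooled value of -0.85 ± 0.61 (limma, adjusted p = 0.686) does not hold within both runs.

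Tcf7l2 (chr19:55741820-55933654, plus strand), which encodes TCF4 and was the most widely found of the 3 nuclear partners, had overlapping early and late captures. Its captures lay between 17.2 RPKM (first E16.5 capture) and 42.5 RPKM (first E12.5 capture), with 34 ± 4.16 in the early group and 27 ± 8.96 in the late group. The change of -0.37 ± 0.31 did not pass the test (limma, adjusted p = 0.752). Its lowest stage mean, 21.4 RPKM, was that of E16.5, as for Lef1, and it was found in 78.6% or more of cells in every capture. Averaged over the captures of a stage, the share of cells was 100% at E10.5, 94% at E11.5, 89.6% at E12.5, 84.8% at E13.5 and 80% at E16.5. Single captures did not keep this order. The first of E13.5, at 78.6%, was below both of E16.5 (80.6% and 79.4%). The second of E13.5, at 91.1%, was above the first of E11.5, at 90.4%. In the E13.5 and E16.5 captures, Tcf7l2 was found in 42 of 59 cells of cluster 3 and 69 of 77 cells of cluster 2. The part of the captures' makeup in these shares was not tested. Whether the courses of the 3 partners differ was not tested.

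Axin2 (chr11:108920349-108950783, plus strand), a scaffold of the destruction complex and a widely used reporter of the signal, was near the limit of what the values resolve. Its mean was 0.0472 RPKM in the E10.5 capture, 1.29 and 1.69 RPKM in the pair of E11.5, 0.392 and 0.293 in that of E12.5, 0.585 and 1.3 in that of E13.5, and 0.263 and 0.626 in that of E16.5. Only 3 of the 9 captures reached a mean of 1 RPKM. At E10.5 it was seen in 1 of 59 cells, 1.69% (0.3 to 9), although that capture was among the deepest, and in 2.94% to 16.1% of cells elsewhere. Late minus early was -0.27 ± 0.44 (limma, adjusted p = 0.892). A single cell held 95.2% of all Axin2 in the second E16.5 capture and 74.6% in the first E11.5 capture.

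Znrf3 (chr11:5276324-5444847, minus strand), a membrane ubiquitin ligase that removes Wnt receptors, was lower in every late capture than in every early one. It averaged 28.1 ± 3.16 RPKM in the early group (24.4 to 30.1, n = 3) and 15.8 ± 6.77 in the late group (5.43 to 23.3, n = 6). Such a separation downwards was seen in 2.56% of all genes tested. The change of -0.91 ± 0.41 did not pass the test (limma, adjusted p = 0.429). Its lowest captures were the first of E13.5 at 5.43 RPKM and the second of E12.5 at 10.7 RPKM, and the E16.5 captures, at 21.9 and 23.3 RPKM, came close to the early ones. In the E16.5 captures the Sertoli-like cells of cluster 3 held 80.3% and 57.5% of all Znrf3, and the other cells averaged 10.3 and 17.7 RPKM. Without cluster 3, an alternative chosen after the data were seen, late minus early was -1.16 ± 0.39 (limma, adjusted p = 0.347). The first E13.5 capture was the one on a medium chip, and the part of chip size in its value was not tested.

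Nkd1 (chr8:88521354-88594884, plus strand), which binds Dishevelled and dampens the signal inside the cell, was low throughout. Its mean was 2.21 RPKM in the E10.5 capture, 10.4 and 3.31 RPKM in the pair of E11.5, 5.06 and 1.37 in that of E12.5, 1.27 and 2.25 in that of E13.5, and 0.281 and 0.151 in that of E16.5. The E16.5 captures were the lowest, with 1 of 31 and 2 of 34 cells found. E16.5 minus E12.5 was -1.64 ± 0.74 (limma, adjusted p = 0.405). The late and early groups differed by -1.22 ± 0.60 (adjusted p = 0.493), with overlapping captures.

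Sfrp2 (chr3:83766321-83774316, plus strand) was high at E10.5 and in 1 of the E11.5 captures. Its mean was 115.7 RPKM in the E10.5 capture, 75.9 and 4.78 RPKM in the pair of E11.5, 6.64 and 5.9 in that of E12.5, 4.71 and 18.1 in that of E13.5, and 0.501 and 4.51 in that of E16.5. The 2 captures of E11.5 differed 15.9-fold, and the second lay within the range of the late captures. Late minus early was -2.63 ± 0.89 on the log2 scale and missed the threshold (limma, adjusted p = 0.27). Leaving out each capture in turn gave adjusted p-values from 0.029 to 0.675; only without the second E11.5 capture, at -3.98 ± 0.70, did it pass. The share of cells, 39% ± 15.1 (SD, n = 3) early and 15.7% ± 6.01 (n = 6) late, passed on its own scale (limma, adjusted p = 0.0386). On that scale 212 of all genes passed, against 71 on the log2 scale. Within the 25M read run the change was -3.48, a value given without a test because the early side is the E10.5 capture alone, and within the 10M read run it was -2.21 ± 0.99 (limma, adjusted p = 0.696).

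At E10.5, 66.3% of all Sfrp2 came from 5 of 59 cells, which belong to cluster 7. This cluster of 6 cells was called mesonephric tubule-like from markers that include Pax8 and Lhx1. Sfrp2 itself was among its 10 leading genes, at a mean of 755 RPKM over its cells. The summed level of the 4 mesonephric markers in the values was 22.3 RPKM at E10.5 and 0.00455 to 2.95 RPKM in 7 of the 8 other captures, with the first E11.5 capture in between; their part in the Sfrp2 result beyond the left-out cells was not tested. Without cluster 7, the E10.5 mean was 42.6 RPKM, and the early captures averaged 41.5 ± 36.3 against 6.73 ± 5.96 RPKM in the late ones. With the germ cell-like, endothelial-like and mesonephric tubule-like cells left out, late minus early was -2.12 ± 0.78 (limma, adjusted p = 0.319).

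**Figure D3:**
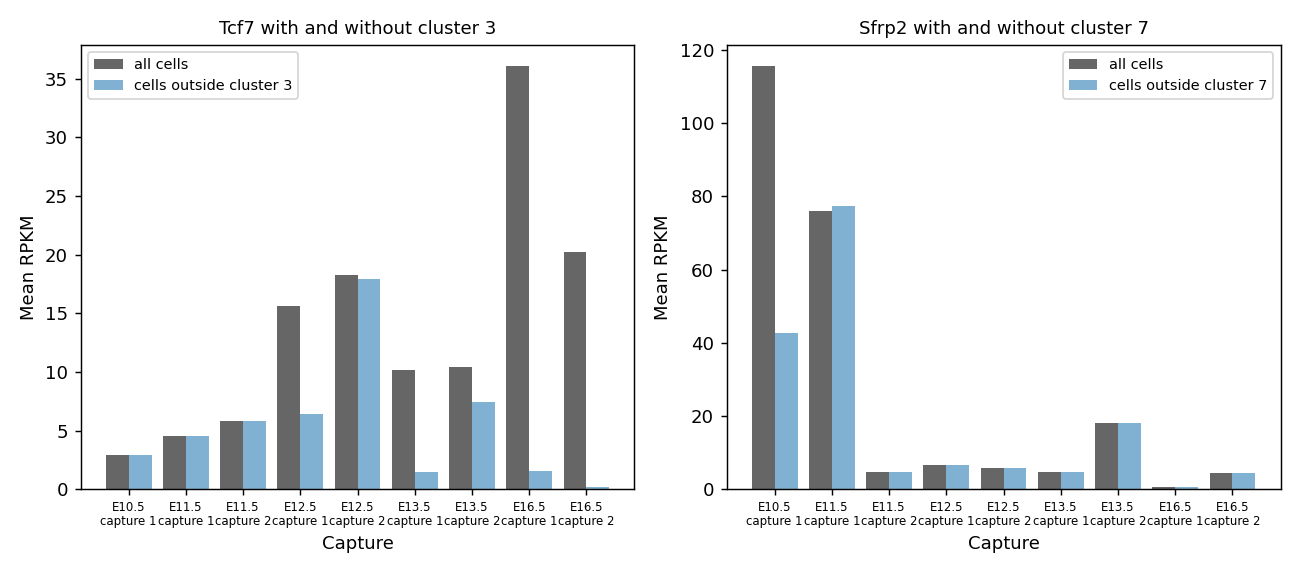
Mean RPKM of Tcf7 (left) and Sfrp2 (right) in each capture over all cells (dark bars) and over the cells outside cluster 3 or cluster 7 (light bars). Outside cluster 3, Tcf7 is 6.43 and 17.9 RPKM in the E12.5 captures, 1.47 and 7.44 RPKM in those of E13.5, and 1.56 and 0.224 RPKM in those of E16.5. Outside cluster 7, Sfrp2 at E10.5 is 42.6 RPKM.

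Sfrp1 (chr8:23411502-23449632, plus strand), the more abundant of the antagonists, had no order over stages. Its mean was 72.6 RPKM in the E10.5 capture, 166 and 43.6 RPKM in the pair of E11.5, 79.2 and 39.2 in that of E12.5, 25.8 and 104.6 in that of E13.5, and 105.96 and 56.5 in that of E16.5. Captures of the same stage differed by 1.87-fold to 4.05-fold, as much as stages did, and late minus early was -0.40 ± 0.46 (limma, adjusted p = 0.824). The share of cells with Sfrp1 was 88.1% at E10.5 but 41.9% and 41.2% at E16.5, so there a similar mean was spread over fewer cells. The highest single cell, 924 RPKM, was in the first E16.5 capture, where it held 28.1% of the capture's Sfrp1.

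None of the 9 genes passed the test between late and early captures, where 71 of 12313 genes tested did (limma, 0.577%). At an unadjusted p under 0.05 there were 3 of the 9 (Tcf7, Znrf3 and Sfrp2) and 1343 of all genes (10.9%). The median change of the 9 was -0.40 and that of all genes -0.01. None passed the test for any difference between the 5 stages, which 1.62% of genes did; 3 of the 9 and 1545 of the 12313 genes had an unadjusted p under 0.05. Averaging log2 values over cells instead of RPKM made that test pass for Lef1, Tcf7 and Sfrp2 (adjusted p = 0.0317, 0.0288 and 0.0199), with 598 genes of all passing in place of 200. In the step from E10.5 to E11.5 none of the 9 passed against 0.39% of genes, and none between E13.5 and E10.5, where 1.06% did. None passed between E16.5 and E12.5 against 0.357%. From E11.5 to E12.5 no gene passed in limma (0%), and 961 had an unadjusted p under 0.05, Tcf7 among them (1.53 ± 0.50, adjusted p = 0.493).

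**Figure D4:**
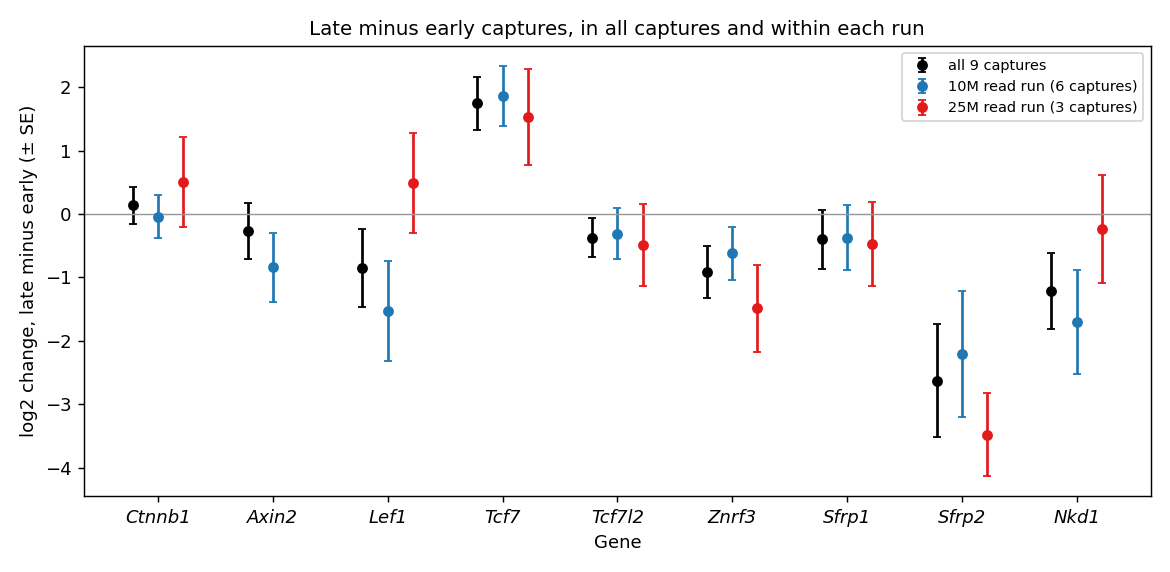
Fitted log2 change of late against early captures with SE, for all 9 captures and within each sequencing run; Axin2 was below the filter in the 25M read run. In both runs Tcf7 lies above 0, and Tcf7l2, Znrf3, Sfrp1, Sfrp2 and Nkd1 lie below 0. Lef1 and Ctnnb1 lie on opposite sides, Ctnnb1 at -0.04 (10M) and 0.50 (25M). In the 25M read run the early side is the E10.5 capture alone, so its SE holds no spread between early captures.

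To ask which somatic cells hold the transcripts, cells were grouped on 69 cell type markers, none of them among the 9 genes. Cluster 3 (67 cells) was Sertoli-like, with 12 of 12 Sertoli markers each found in at least 25% of its cells. It held no cell before E12.5, 4 and 4 cells in the captures of that stage, 18 and 8 in those of E13.5, and 18 and 15 in those of E16.5. Cluster 2 scored highest for interstitial markers, of which 11 of 12 were found in at least 25% of its cells, but its leading genes were Acta2, Cd40 and Pdlim3 and held none of those markers, so it is called by its number. Cluster 1 (146 cells, mostly early) stayed unnamed. Clusters and tested genes come from the same cells, so the p-values between clusters are for description of these captures.

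Within the same captures, Tcf7 was higher and Sfrp1 lower in the Sertoli-like cells than in cluster 2. In cluster 3, Tcf7 averaged 28.6 and 28.1 RPKM in the E13.5 captures and 61.1 and 45.6 RPKM in the E16.5 captures. In cluster 2 of the same captures it averaged 1.14, 2.72, 1.69 and 0 RPKM. It was higher in cluster 3 in 4 of 4 captures, by 4.21 ± 0.63 on the log2 scale (limma blocked by capture, adjusted p = 0.00447), and passed without each capture in turn (adjusted p from 0.0105 to 0.0403). Tcf7 was found in 39 of 59 cells of cluster 3 and 9 of 77 cells of cluster 2 in these captures. Cells of cluster 3 held 90.2% and 38.7% of all Tcf7 in the E13.5 captures and 98.2% and 99.4% in those of E16.5, where they were 58.1% and 44.1% of cells. The E12.5 captures held too few Sertoli-like cells for the test. In the second of them the order was the opposite, 21.2 RPKM in the 4 cells of cluster 3 and 35.9 RPKM in the 8 cells of cluster 2, and cluster 3 held 12.6% of all Tcf7.

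Sfrp1 averaged 21 and 0.0875 RPKM in cluster 3 of the E13.5 captures and 7.05 and 7.45 RPKM in those of E16.5, against 34.1, 137.9, 280.9 and 105.7 RPKM in cluster 2. It was lower in cluster 3 in 4 of 4 captures, by -4.11 ± 0.82 (limma, adjusted p = 0.0187). The call was lost without the second E13.5 capture (-3.15, adjusted p = 0.0989), and likewise without the first E16.5 capture (-3.78, 0.119) or its pair (-4.27, 0.0606). Sfrp1 was found in 17 of 59 cells of cluster 3 and 60 of 77 cells of cluster 2. The first E13.5 capture had the smallest difference, with 11 of 18 Sertoli-like cells found.

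These were 2 of the 8 genes tested between the clusters, where 530 of 11448 genes passed (4.63%). Lef1, Tcf7l2, Sfrp2 and Nkd1 were also lower in cluster 3 in 4 of 4 captures without passing. Their changes were -1.66 ± 0.68 for Lef1 (adjusted p = 0.208), -1.73 ± 0.58 for Tcf7l2 (0.126), -2.56 ± 0.81 for Sfrp2 (0.106) and -1.14 ± 0.56 for Nkd1 (0.302). Ctnnb1 averaged 117.03 ± 27.6 RPKM in cluster 3 and 129.4 ± 70.2 in cluster 2 (SD, n = 4), a change of 0.03 ± 0.34. Znrf3 averaged 22.5 ± 13.1 and 10 ± 2.36 RPKM and was higher in cluster 3 in 3 of 4 captures (0.74 ± 0.60, adjusted p = 0.546). Axin2 was below the filter, at 2 of 59 and 10 of 77 cells. Without the filter on low values no gene passed this comparison, with adjusted p-values of 0.137 for Tcf7 and 0.246 for Sfrp1.

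**Figure D5:**
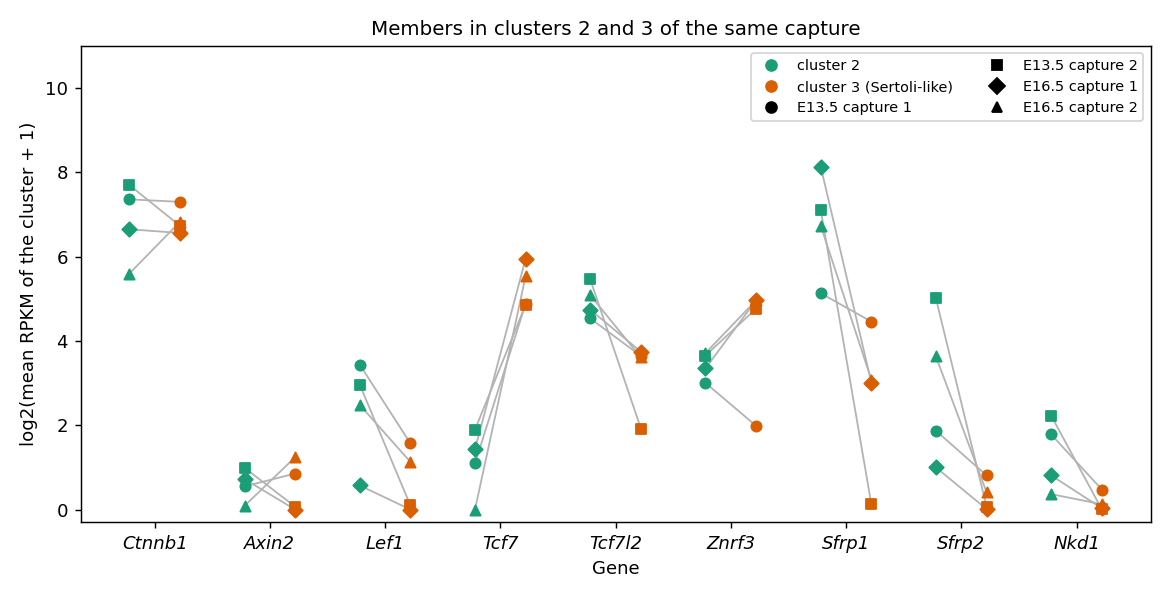
log2(mean RPKM + 1) of the 9 genes in cluster 2 (left points) and cluster 3 (right points), joined within each of the 4 captures that hold both. All 4 lines go up for Tcf7 and all 4 go down for Lef1, Tcf7l2, Sfrp1, Sfrp2 and Nkd1.

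Between clusters 2 and 1, over 7 captures, none of the 9 genes passed and 0.00821% of all genes did (1 of 12181). Sfrp2 had the largest change, 1.35 ± 0.62 (limma, adjusted p = 0.761). Between clusters 3 and 1, which only 2 captures hold in sufficient number, none of the 9661 genes passed in limma (0%); 754 had an unadjusted p under 0.05, and none of the 7 members tested was among them. Among the smaller clusters, the 37 cells of cluster 4 were called coelomic epithelium-like from Krt19, Upk3b and Muc16. They had the highest share of Axin2, 21.6% (11.4 to 37.2, 8 cells), and had Lef1 in 62.2% (46.1 to 75.9), with captures pooled. A high share of Lef1 was not particular to them. It was found in 4 of 5 cells of cluster 7 at E10.5 and 7 of 11 cells of cluster 5 in the second E12.5 capture. The germ cell-like cluster 5 had Tcf7 in 7 of 14 cells, and 11 of its 14 cells came from the second E12.5 capture.

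Other genes of the pathway were followed through lists of ligands, receptors, relay proteins, nuclear partners, antagonists and targets, 91 genes in the values. Of the 72 tested between late and early captures, 1 rose and none fell, with a median change of -0.17 against -0.01 for all genes. The one was Sostdc1, a secreted antagonist of Wnt and BMP signals, at 0 to 0.00997 RPKM in the early captures and 61.2 ± 43.7 RPKM in the late ones (5.30 ± 0.90, limma, adjusted p = 0.0231). Its call was lost without the first E13.5 capture (0.0508) and without each of the early captures (0.0639 to 0.0904). It was also lost with no filter on low values (0.174), with log2 values averaged over cells (0.197) and in the 10M read run alone (0.258). It was found in no early cell at 1 RPKM. Wnt5a, a ligand that mainly acts outside the beta-catenin branch, was 1.33 RPKM at E10.5, 18.9 ± 5.54 at E11.5 and 70.3 ± 15.8 at E13.5 (SD, n = 2). It rose from E10.5 to E11.5 (3.07 ± 0.48, adjusted p = 0.0206) and was higher at E13.5 than at E10.5 (4.92 ± 0.48, adjusted p = 4.89e-04). The first of these calls was lost without the first E11.5 capture (0.0513), without the second (0.197), with averaged log2 values (0.191) and on shares of cells (0.0966). In both comparisons E10.5 is a single capture.

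In the lists with no gene past the threshold between late and early captures, the largest changes among genes of at least 5 RPKM were as follows. Of 10 ligand genes tested, Wnt5a changed by 2.52 ± 0.56 (limma, adjusted p = 0.0592) and Wnt6 by 1.22 ± 0.73. Of 15 receptors, Lgr4, which binds R-spondins, was 222 ± 60.2 RPKM early and 84.4 ± 42.6 late (-1.56 ± 0.45, adjusted p = 0.167), and Ror1 changed by -1.66 ± 0.77. Of 14 relay and destruction complex genes, Gsk3b, the kinase that marks beta-catenin for degradation, was 133 ± 24.8 and 74.5 ± 26.9 RPKM (-0.94 ± 0.38, adjusted p = 0.364), and Csnk1a1 changed by -0.71 ± 0.26. Of 13 nuclear partners, Tcf7l1 changed by -1.04 ± 0.55 and Pygo1 by 0.85 ± 0.52. Of 11 target genes, Bmp4 was 15.6 ± 8.38 and 2.26 ± 1.99 RPKM (-2.45 ± 0.56, adjusted p = 0.0702), and Ccnd1 changed by -1.21 ± 0.48.

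Between clusters 3 and 2, 1 of 61 tested pathway genes was higher in the Sertoli-like cells and 2 were lower, 4.92% of them against the 4.63% of all genes. Wnt6 was 34.7 ± 6.19 RPKM in cluster 3 and 2.19 ± 2.39 in cluster 2 (SD, n = 4; 3.82 ± 0.64, limma, adjusted p = 0.00811). Leaving out the second E13.5 capture (0.0632) or the first of E16.5 (0.0531) ended its call. Wnt5a was 9.09 ± 6.57 and 98.5 ± 28.7 RPKM (-3.69 ± 0.64, adjusted p = 0.00879). Id2, an inhibitor of helix-loop-helix factors that is listed among the targets, was 195 ± 198 and 659 ± 260 RPKM (-2.11 ± 0.26, adjusted p = 0.00189). Each of these 3 genes changed the same way in 4 of 4 captures, and none passed without the filter on low values.

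Within captures the 9 genes were only weakly related to each other over single cells. The correlations below are over 396 cells of log2(RPKM + 1) centred in each capture. They share library and depth, and are given as a description. The highest of the 36 pairs was Axin2 with Lef1 (0.20), followed by Tcf7 with Znrf3 (0.19). The lowest were Tcf7 with Sfrp1 (-0.16) and Tcf7 with Tcf7l2 (-0.16). Lef1 was found in 51.6% of the 31 cells with Axin2 and in 33.7% of the cells without. Among 9780 genes found in at least 10% of cells, those most like Sfrp1 were the collagen genes Col1a1 (0.54), Col1a2 (0.51) and Col3a1 (0.49). Those most like Tcf7 were Mt3, Trank1 and Tmem184a (each 0.43). Col1a2 (0.27), Col3a1 (0.26) and Nr2f2 (0.26) were most like Tcf7l2. For Znrf3 the nearest gene was Scrn1 (0.29), for Axin2 Hoxc5 (0.27), for Lef1 Podxl (0.27) and for Nkd1 Cthrc1 (0.23).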

How the data were processed

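The authors deposited 1 RPKM value per gene and cell, for 16459 genes and 400 of the 435 labelled cells; 35 cells were not used here. Per the labels' protocols, cells were dissociated with trypsin, captured on Fluidigm C1 chips, and made into libraries with the SMARTer and Nextera XT kits. GRCm38.p3 and mm10 are the builds that the submitters' processing notes list. Which aligner, counter, strand setting and annotation were used is not given in the sources used here. That the unit is RPKM was inferred: with GENCODE M21 exonic lengths, 68.7% of values of up to 20 reads in the median cell fell on whole reads within 0.05, too few to recover counts.

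Cells under 3000 detected genes were left out (3 cells), and 2 wells of the second E12.5 capture with a correlation of 0.998 were averaged. Mean RPKM per capture was fitted as log2(mean + 1) with limma 3.58.1 (trend, robust), keeping genes that averaged 1 RPKM or more in 2 or more captures, with Benjamini-Hochberg adjustment over all genes and a threshold of 0.05. E10.5 has 1 capture and takes its spread from the other stages. Ward linkage on the 69 markers gave 8 clusters, and clusters were compared within captures, with at least 5 cells of each. Marker genes were left out of these tests. A planned criterion for doublets (3 markers of each of 2 types) marked 114 of 396 cells. It was judged too broad, so these cells were kept and left out only in an alternative, and no doublets were removed otherwise. The fits were tested on simulated captures.

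The 9 genes, the pathway lists and the markers were chosen with earlier results of these data known. All 9 genes were followed in every comparison that their level allowed; of the lists, called genes, or up to 2 of the largest late against early changes, were named. Sequences are from the RefSeq table on GRCm38.p6.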

Additional observations from a re-analysis of the deposited data

Results flagged for a closer look

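Of 36 groups of 4 or 6 capture means or shares of the 9 genes, 4 held a capture far from the others. The cutoff would flag about 1 in 20 groups of independent, normally distributed values. These groups share captures and mix stages, so that rate need not hold here. The second E13.5 capture stood above the other late captures for Axin2 (1.3 RPKM against 0.263 to 0.626) and for Sfrp2 (18.1 RPKM against 0.501 to 6.64). In this capture 1 cell, at 616 RPKM, held 60.8% of all Sfrp2. In the Sertoli-like cluster 3, Tcf7l2 was 2.79 RPKM in the second E13.5 capture, which held 8 cells of the cluster, against 11.2 to 12.4 in the other 3. Znrf3 was 2.96 RPKM in the first E13.5 capture against 26.2 to 30.3 in the others.

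Late and early captures differed in opposite directions in the sequencing runs, without overlap in either run, for 2 genes. Ctnnb1 also changed sign (-0.04 with 10M reads and 0.50 with 25M reads), but its captures overlapped in the 10M read run. For Axin2 the difference of log2(mean RPKM + 1) was -0.84 with 10M reads and 0.87 with 25M reads. For Lef1 it was -1.53 and 0.49. For Axin2 and Lef1, every late capture of a run lay on the same side of every early one, although the 25M read run holds E10.5 as its only early capture. The difference between runs was not tested. The runs hold different stages, so run and stage cannot be told apart here.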

How the results depend on the processing

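Of 1191 log2 changes recomputed under the alternatives, 1101 kept direction and side of the threshold, 31 lost and 9 gained a call, and 50 changed sign; none of these 50 was a called value. Part of this agreement was fixed in advance. The gap between the highest and lowest stage, used for any stage difference, cannot change sign. Leaving out a capture of a stage outside a contrast leaves its log2 change as it was. The count of values that kept their direction is therefore no measure of robustness. The causes were not tested. Among the 18 shares, 3 moved by more than the spread between captures.

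Counts of genes called in limma moved as follows. Between late and early captures, 71 became 4 with no filter on low values, 212 on shares of cells, 16 without cluster 3, 0 with the 10M run alone and 421 with the 25M run alone. For any stage difference, 200 became 598 with log2 values averaged over cells, 644 on shares and 65 without cluster 3. For E11.5 against E10.5, 48 became 98 with a pseudocount of 0.1, 205 with no filter, 92 with averaged log2 values and 18 on shares. E12.5 against E11.5 gave 5, 1 and 3 with no filter, averaged log2 values and shares. E16.5 against E12.5 gave 5, 243 and 219 for the same alternatives and 16 without cluster 3, from 44. E13.5 against E10.5 gave 257, 238, 286 and 41, from 131. Cluster 2 against 1 gave 0, from 1, with a pseudocount of 0.1, no filter, 3 cells, 6 or 10 clusters and without possible doublets. Cluster 3 against 2 gave 328 with a pseudocount of 0.1 and 0 with no filter, from 530. Cluster 3 against 1 gave 73 with 3 cells, 1 with 6 clusters and 8 without possible doublets.

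Of the 9 genes, 1 (Sfrp2) was called between late and early captures on shares, and 1 (also Sfrp2) in the 25M read run, where the early side is 1 capture and the call carries no weight. Of all genes, 212 were called between late and early captures on shares, in place of 71. For any stage difference 3 of the 9 were called with averaged log2 values and 2 on shares. Of all genes, 598 and 644 were called there, in place of 200. Between E16.5 and E12.5, 1 of the 9 was called on shares, with 219 of all genes in place of 44. Between clusters 3 and 2, 1 of the 9 was called with a pseudocount of 0.1 and 0 with no filter. Of all genes, 328 and 0 were called there, in place of 530.

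Leaving out each capture in turn gave 15 to 1.1e2 (rounded to 2 digits) genes called between late and early captures, 100 to 146 for any stage difference, 6 to 48 for E11.5 against E10.5, 0 to 1 for E12.5 against E11.5, 4 to 48 for E16.5 against E12.5, 41 to 126 for E13.5 against E10.5, 0 to 3 for cluster 2 against 1 and 165 to 477 for cluster 3 against 2. The lowest counts were without the first E13.5 (15 and 41), first E16.5 (100 and 165), second E11.5 (6) and first E12.5 capture (4). Of the 9 genes, 0 to 1 were called between late and early captures and 1 to 2 between clusters 3 and 2.

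Some signs changed when 1 capture was left out. Ranges over captures left out were, for Sfrp1, -0.84 to 0.11 (late minus early), -0.72 to 1.19 (E11.5 minus E10.5), -1.56 to 0.35 (E12.5 minus E11.5), -0.03 to 0.96 (E16.5 minus E12.5) and -1.46 to 0.52 (E13.5 minus E10.5). For E11.5 minus E10.5 they were -0.25 to 0.11 for Ctnnb1, -0.18 to 0.16 for Tcf7l2 and -0.27 to 0.02 for Znrf3. For E12.5 minus E11.5 they were -0.26 to 0.32 for Tcf7l2 and -3.40 to 0.33 for Sfrp2, the latter without the first E11.5 capture. They were -0.09 to 0.28 for Axin2 (E16.5 minus E12.5) and -0.50 to 0.01 for Nkd1 (E13.5 minus E10.5). For cluster 2 minus 1 they were -0.45 to 0.01 for Axin2, -0.51 to 0.15 for Lef1, -0.10 to 0.97 for Tcf7 and -0.06 to 0.22 for Tcf7l2. For cluster 3 minus 2, Ctnnb1 gave -0.37 to 0.36.

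Other alternatives changed signs as follows. Without cluster 3, late minus early was -0.21 for Tcf7 and 0.02 for Sfrp1, and E16.5 minus E12.5 was -2.74 for Tcf7 and -0.09 for Axin2. Within runs, late minus early was -0.04 for Ctnnb1 (10M) and 0.49 for Lef1 (25M). With averaged log2 values, late minus early was 0.00 for Axin2, E11.5 minus E10.5 was -0.17 for Tcf7 and -0.70 for Sfrp1, E12.5 minus E11.5 was -0.09 for Tcf7l2, and E16.5 minus E12.5 was -0.01 for Axin2 and -1.01 for Sfrp1. On shares (arcsine scale) the same 6 comparisons gave 0.05, -0.12, -0.21, -0.09, no change of sign and -0.30, and the sign also changed for Lef1 (E13.5 minus E10.5, -0.03), Ctnnb1 (E16.5 minus E12.5, 0.02) and Znrf3 (E16.5 minus E12.5, -0.04). With 3 cells as the minimum, cluster 2 minus 1 was 0.18 for Lef1, -0.07 for Tcf7l2 and 0.20 for Znrf3, and cluster 3 minus 1 was 0.33 for Ctnnb1 and 1.22 for Znrf3. Without possible doublets, cluster 2 minus 1 was 0.60 for Lef1, -0.48 for Tcf7 and -0.02 for Tcf7l2. With 10 clusters, cluster 3 minus 2 was -0.02 for Ctnnb1.

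Late minus early in the share of cells at 1 RPKM, -11.2 percentage points for Tcf7l2 and -13.1 for Znrf3, was -4.17 and -5.1 when any value above 0 counted, and -18 for Tcf7l2 at 5 RPKM. No paired analysis was possible because the numbers of cells and captures only name them and pair nothing across stages; clusters were compared within captures. Genes near 1 RPKM, Axin2 above all, rest on few reads per cell.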

Other observations

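Counted per cell, fewer of the 9 genes were found at 1 RPKM or more in the E16.5 captures, with means of 3.74 and 3.35 genes, than at E10.5, with 4.93, or at E11.5, with 4.9 and 4.44. The means were 4.2 and 4.3 at E12.5 and 3.82 and 4.29 at E13.5, so the first E13.5 capture lay close to those of E16.5. Cluster 3 was 58.1% and 44.1% of the E16.5 cells. In the E13.5 and E16.5 captures it had Lef1 in 7 of 59 cells and Axin2, Sfrp2 and Nkd1 in 2 of 59 each. Its part in these means was not tested. Over all genes, the median number above 0 RPKM per cell was 5587 and 4904 at E16.5, 6503 at E10.5, and 4959 and 5668 at E11.5. It was 5284 and 5617 at E12.5 and 6349 and 5663 at E13.5. These are medians at a lower threshold than the means for the 9 genes, so the 2 counts are not like for like. Median depth was 2.62 and 2.7 M reads in the E16.5 captures, 7.91 M in the E10.5 capture, and 2.2 and 2.74 M in those of E11.5. Rspo1, an ovary-promoting agonist of the pathway, was 0.0639 to 0.181 RPKM in the E16.5 captures and 8 to 12.9 RPKM in the E12.5 captures; its test for any difference between stages gave an adjusted p of 0.0823 in limma. At E12.5 it averaged 48.4 and 63.2 RPKM in the coelomic epithelium-like cells of cluster 4, which held none of the E16.5 cells, and the summed coelomic epithelium markers were 86.6 and 139.61 RPKM at E12.5 and 8.99 and 21.8 RPKM at E16.5; their part in the Rspo1 values was not tested. Rspo1 was chosen after its values were seen.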
